A study of Mus musculus with 8 samples.

Results

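The inflammasome and pyroptosis genes described here are 10 genes taken by symbol from the deposited expression tables: Nlrp3, Aim2, Nlrc4, Naip2, Naip5, Pycard, Casp1, Casp4, Gsdmd and Ninj1. All 10 were present, among 21080 genes in all. RNA-seq had been performed on 8 samples of mouse bone marrow-derived macrophages (BMDMs), which are cultured from marrow with M-CSF, in 4 groups of 2. Nudt21-cKO (cKO) cells came from Nudt21 fl/fl LysM Cre mice, in which a Cre recombinase under the myeloid lysozyme promoter removes exons 2 and 3 of Nudt21. WT cells came from sex-matched LysM Cre littermates, so both genotypes carried the Cre. Each genotype was sampled without stimulation (0 h) and after a night in IFNγ (50 ng/ml) and then 4 h with LPS (50 ng/ml), named 4 h below. The 0 h samples were taken as unstimulated from their titles, although another label names the stimulation for every sample. Each sample pooled the cells of 2 mice, and WT samples carry the numbers 1 and 2 and cKO samples 3 and 4. The ages of these mice, and whether the samples of a group came from separate cultures, are not given in the sources used here, so p-values measure the spread between these samples only.

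Inflammasomes are protein platforms that assemble in the cytosol of macrophages when a sensor meets a microbial product or cell damage. The sensors Nlrp3, Aim2 and the Naip/Nlrc4 pair recruit the adaptor ASC, encoded by Pycard, and the protease caspase-1, while caspase-4, also named caspase-11 in the mouse, binds intracellular LPS directly. These caspases cleave gasdermin D (Gsdmd), whose fragment forms pores in the plasma membrane, and Ninj1 then drives rupture of that membrane, the lytic death called pyroptosis. Caspase-1 also matures the cytokines IL-1β and IL-18. Priming by cytokines and LPS raises transcription of several of these genes in macrophages before any assembly takes place. Nudt21 is a subunit of the cleavage factor Im complex, which binds UGUA in nascent 3' ends and guides the choice of polyadenylation site.

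Values are mean read coverage per base of a gene, which is already per length and was deposited without scaling between samples. The coverage summed over all genes ran from 14950347 to 17954882 per sample and stood above that of WT in every cKO sample of the same time. Nudt21 was at 717.7 and 640.8 in WT, against 158 and 172 in cKO at 0 h, and at 547 and 575 in WT, against 142 and 115 in cKO at 4 h, so it was lower in every cKO sample (log2 fold change -2.04 at 0 h and -2.13 at 4 h, limma adjusted p = 0.0462 and 0.0445). These values cover the whole gene, of which the floxed exons are a part. All 8 macrophage markers were detected in every group. Their summed coverage overlapped between genotypes at 0 h (124575 to 132779 in WT, 125425 to 134181 in cKO) and was higher in cKO at 4 h (62229 to 65253 against 50877 to 55634), where 4 of the 8 had a positive genotype difference, Cd68 went from a mean of 12731 in WT to 26822 in cKO, and Adgre1 was at 12850 in WT and 9313 in cKO. The 9 neutrophil markers, led by S100a9, summed to 23186 to 25041 in WT and 27245 to 35998 in cKO at 0 h, and to 17537 to 21616 in WT and 21901 to 24928 in cKO at 4 h. Of these 9, 7 had a positive genotype difference at 0 h and 6 at 4 h. The defining marker Ly6g was at or below 7.37 in every sample and at 0 in both cKO samples and 1 WT sample at 0 h, and Retnlg was at 0 in both cKO samples at 4 h. The 5 stromal markers were low, summing to 86.9 to 192.7 in WT and 154.8 to 222.1 in cKO at 0 h, and to 16.4 to 92.4 in WT and 80.7 to 116.3 in cKO at 4 h, with a positive genotype difference for 5 of 5 at each time. The part of these other cells in the results below was not tested, and in bulk RNA fewer cells of a type and less RNA per cell cannot be told apart.

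A gene was called different at a fold change above 1.5 with an unadjusted p under 0.05 from limma. These thresholds are those of the study's methods, which do not name limma or say whether p was adjusted. The p adjusted over all genes (Benjamini-Hochberg) is given beside it. The interaction of genotype and stimulation was called by another rule, an adjusted p under 0.05 with no fold threshold. For 1 gene alone, exact permutation of 2 samples against 2 has a smallest two-sided p of 0.333. The median gene was not level between the groups: its log2 fold change was 0.31 between genotypes at 4 h, 0.10 at 0 h, and -1.24 in WT and -1.03 in cKO with stimulation. Each difference is therefore given on the deposited scale and, where that changes a call or a direction, after each sample was centred on its median gene.

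In resting macrophages the gene for membrane rupture stood far above the rest of the machinery. Ninj1 had a mean coverage of 8342 in WT and 8114 in cKO at 0 h, at percentiles 98.4 and 98.2 of the genes with a mean of at least 0.5. It made up 52.4% and 52.7% of the summed coverage of the 10 genes in WT and 52.0% and 50.1% of it in cKO. In WT at 0 h Casp1 (mean 1375), Gsdmd (1242) and Naip2 (1177) followed, and each overlapped its neighbour in that order. Pycard (820.4) and Aim2 (726) overlapped each other, as did Nlrp3 (628), Naip5 (605) and Casp4 (589.7) in sequence. Nlrc4 was the lowest of the 10 at 365, below both Casp4 samples. In cKO at 0 h the order differed in that Gsdmd (1548) stood before Casp1 (1451) with overlapping samples, and Nlrp3 (439.6), Nlrc4 (416) and Casp4 (406) came last, each overlapping the next.

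After 4 h of stimulation the sensor Nlrp3 and the LPS-binding caspase had joined Ninj1 at the top. In WT the order was Nlrp3 (mean 12564), Casp4 (6368), Ninj1 (6133), Casp1 (4456), Gsdmd (2149), Aim2 (1449), Pycard (1053), Naip2 (732), Nlrc4 (148) and Naip5 (118), and of these neighbours only Casp4 and Ninj1 overlapped. In cKO Ninj1 (10187) and Nlrp3 (9621) overlapped at the top, followed by Casp4 (4629), Casp1 (4421), Gsdmd (3409), Aim2 (1121), Pycard (987), Naip2 (715), Nlrc4 (114) and Naip5 (109.8), where the last pair overlapped. Nlrp3 held 37.4% and 34.0% of the summed coverage of the 10 genes in WT and 27.4% and 27.1% of it in cKO. On the deposited scale the sum overlapped between genotypes, at 35507 and 34830.4 in WT, against 34828 and 35798 in cKO, and as a share of all coverage it was lower in cKO, at 0.201% and 0.199% against 0.228% and 0.233% in WT.

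**Figure D1:**
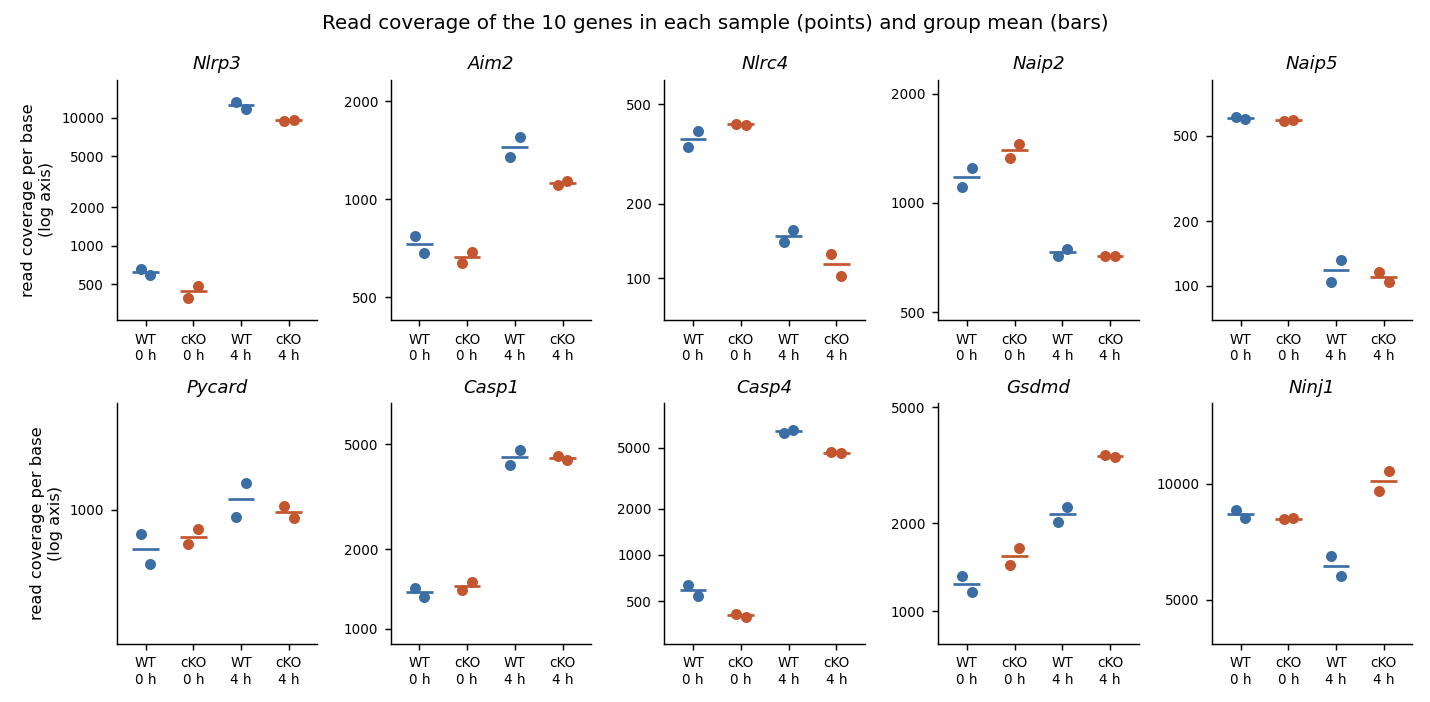
Read coverage per base (log axis, a separate scale for each gene) of the 10 genes in WT (blue) and cKO (orange) samples at 0 h and 4 h. Points are samples and bars the mean of 2 samples. Nlrp3 and Casp4 lie far higher at 4 h than at 0 h in both genotypes, and the cKO samples of Gsdmd and Ninj1 lie above their WT samples at 4 h.

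Stimulation with IFNγ and LPS raised 5 of the 10 genes and lowered 3 in each genotype, and they were the same genes in WT and cKO. Nlrp3, Aim2, Casp1, Casp4 and Gsdmd rose, and Nlrc4, Naip2 and Naip5 fell. Over all 16284 genes tested, 68.0% were called in WT (12.0% higher and 56.0% lower) and 65.4% in cKO (13.5% higher and 51.9% lower). Across the 10 genes the median log2 fold change was 0.58 in WT and 0.54 in cKO, against -1.24 and -1.03 for all genes. With samples centred on their median gene, the calls were 8 higher and 1 lower in WT and 7 higher and 2 lower in cKO, while over all genes 5653 were higher and 3621 lower in WT and 5322 higher and 3650 lower in cKO.

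Among the 5 sensors of the 10 genes, Nlrp3, which responds to membrane damage and ion flux, rose most. Its coverage went from 661 and 595 in the WT samples at 0 h to 13275 and 11852 at 4 h, and from 394 and 485 to 9542 and 9701 in cKO. All stimulated samples lay far above all resting ones. The log2 fold change was 4.32 in WT (SE 0.14, limma adjusted p = 2.93e-05) and 4.46 in cKO (SE 0.14, adjusted p = 2.78e-05). Aim2, the sensor of cytosolic DNA, went from 768 and 684 to 1347 and 1550.1 in WT and from 637 and 688 to 1103 and 1138 in cKO. Its log2 fold change was 1.0 in WT (SE 0.12, limma adjusted p = 0.00111) and 0.76 in cKO (SE 0.12, adjusted p = 0.00336), so this rise was small beside that of Nlrp3.

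The sensors of bacterial flagellin and secretion systems moved the other way. Naip5, which binds flagellin, dropped from 609 and 601 to 104 and 131 in WT and from 589 and 593 to 116 and 104 in cKO. Its log2 fold change was -2.37 in WT (SE 0.14, limma adjusted p = 0.000111) and -2.43 in cKO (SE 0.14, adjusted p = 0.000124), and it stayed lower, at -0.90 and -1.23, relative to the median gene. Nlrc4, the partner that Naip proteins activate, went from 338 and 391 to 140.3 and 157 in WT and from 419 and 413 to 126 and 102 in cKO. The fall of Nlrc4 was -1.29 on the log2 scale in WT (SE 0.15, limma adjusted p = 0.000895) and -1.88 in cKO (SE 0.15, adjusted p = 0.000298), but relative to the median gene the WT value turned to 0.17, which was not called, and the cKO value was -0.67. Naip2, which binds the rod protein of secretion systems, went from 1109 and 1245 to 715 and 748 in WT and from 1333 and 1456 to 714 and 717 in cKO. Its log2 fold change was -0.68 in WT and -0.96 in cKO (SE 0.11 each, limma adjusted p = 0.00282 and 0.00089), and centring turned both directions, to 0.78 in WT, which was called higher, and to 0.24 in cKO, which was not called. Naip5 therefore fell on both scales in both genotypes, whereas the direction of Naip2 depended on the scale in both.

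The adaptor moved little, and the caspases rose. Pycard was at 882 and 759 in WT, against 838 and 905 in cKO at 0 h, and at 964 and 1142 in WT, against 1019 and 956 in cKO at 4 h. Its log2 fold change of 0.36 in WT and 0.18 in cKO was not called on the deposited scale, and centring gave 1.83 and 1.38, both called higher. Casp1, the protease of the canonical inflammasome, went from 1432 and 1317 to 4160.0 and 4751 in WT and from 1401 and 1501 to 4504 and 4337 in cKO. This was a 3.24-fold rise in WT (log2 1.70, SE 0.11, limma adjusted p = 0.000155) and a 3.05-fold rise in cKO (log2 1.61, SE 0.11, adjusted p = 0.000218). Casp4 went from 641 and 538 to 6270.0 and 6466 in WT and from 415 and 396 to 4678 and 4579 in cKO. Its rise was 10.8-fold in WT (log2 3.44, SE 0.12, limma adjusted p = 3.1e-05) and 11.4-fold in cKO (log2 3.51, SE 0.12, adjusted p = 3e-05). Casp1 and Casp4 are neighbours on chromosome 9, and Casp4 overtook Casp1 only in the stimulated samples.

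The genes of pore and rupture differed from each other. Gsdmd went from 1323 and 1161 to 2026 and 2271 in WT and from 1443 and 1652 to 3434 and 3384 in cKO. The rise was 1.73-fold in WT (log2 0.79, SE 0.13, limma adjusted p = 0.00329) and 2.21-fold in cKO (log2 1.14, SE 0.13, adjusted p = 0.000941). Ninj1 went from 8550.3 and 8133 to 6504 and 5762 in WT and from 8097 and 8132 to 9592 and 10781 in cKO, so its samples lay lower after stimulation in WT and higher in cKO. Neither change of Ninj1 passed the fold threshold on the deposited scale (log2 -0.45 in WT, limma adjusted p = 0.0174, and 0.33 in cKO, adjusted p = 0.0505), and relative to the median gene both were called higher, at 1.02 and 1.53, so that the direction in WT turned with the scale.

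**Figure D2:**
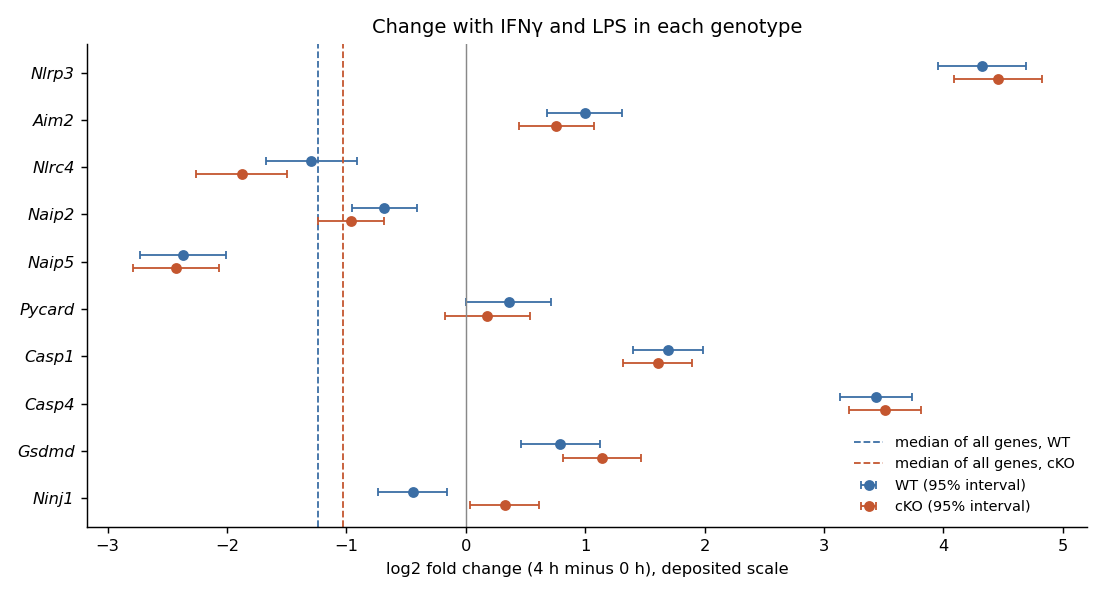
Log2 fold change from 0 h to 4 h of the 10 genes in WT (blue) and cKO (orange) on the deposited scale, with 95% intervals from limma (n = 2 samples per group). The dashed lines mark the median of all genes, at -1.24 in WT and -1.03 in cKO. Nlrp3 (4.32 and 4.46) and Casp4 (3.44 and 3.51) lie furthest to the right, and Naip5 (-2.37 and -2.43) furthest to the left.

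Promoter sequence was looked at because Nlrp3 and Casp4 rose so far with IFNγ and LPS, of which LPS is known to act through NF-kB. The effects of the 2 agents cannot be told apart in this design. RefSeq promoters on GRCm38.p6, from 250 bases before to 50 after a start site, were found for 9 of the 10 genes, and none was matched for Gsdmd. The NF-kB consensus had a match on either strand in 3 of these 9 genes, Casp4, Nlrp3 and Naip5, and in 5.14% of all 27025 genes with a promoter. In Casp4 the matches on both strands overlap one another, 93 bases before the nearer of the 2 annotated start sites. The windows of 30 bases follow, read 5′ to 3′ on the strand of the gene, with 1 match in each in capitals.
Casp4 (chr9:5308746-5308775, plus strand): atgagttacaGGGGATTTCCccacagcagt
Nlrp3 (chr11:59541373-59541402, plus strand): ggcttctgcaGGGAACCCCCgggaattctg
Naip5 (chr13:100247535-100247564, minus strand): ccccagtacaGGGGAACTCCagggacaaga
Of these 3 genes Casp4 and Nlrp3 rose and Naip5 fell. The interferon response element, here spelled GAAANNGAA, was in 1 of the 9, Naip2, and in 9.76% of all genes. The PU.1 site, here spelled GAGGAAGT, was in 2 of the 9, Aim2 and Pycard, and in 3.69% of all genes. Both strands were searched for each motif, and a match describes the letters in this window only.

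Between genotypes at 4 h, the question was whether macrophages without Nudt21 carry a different set of inflammasome transcripts when stimulated. On the deposited scale 2 of the 10 genes were called, Gsdmd and Ninj1, both higher in cKO, and none was called lower. Over all 14950 genes 25.0% were called, 20.8% higher and 4.17% lower, so 2 of 10 is close to the share of genes that were higher. Across the 10 genes the median log2 fold change was -0.09, against 0.31 for all genes, and 8 of the 10 had a negative value, against a positive one in 70.7% of all genes. With samples centred on their median gene, the calls were other genes: Nlrp3, Casp4, Aim2 and Nlrc4 were called lower and none higher, while over all genes 1552 were higher and 1480 lower (1929 and 1015 at the same total coverage), against 3112 and 624 on the deposited scale. By limma, 4 of the 10 had an unadjusted p under 0.05 on the deposited scale, 2 higher and 2 lower, against 34.3% of all genes (28.7% higher and 5.65% lower), and 8 after centring, 1 higher and 7 lower, against 28.6% (13.8% higher and 14.7% lower). None had an adjusted p under 0.05 in the fit to the 4 samples of this time on either scale. In 1 fit over all 8 samples, which shares the spread of the 4 groups, Ninj1 (limma adjusted p = 0.0156), Gsdmd (0.0251) and Casp4 (0.0476) were below 0.05, as were 22.9% of all genes.

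The effector genes had the 2 largest differences on the deposited scale, though not after centring or at the same total coverage, where Casp4, Nlrc4, Nlrp3 and Aim2 differed more. Gsdmd, with 2026 and 2271 in WT, was at 3434 and 3384 in cKO, and the groups did not overlap. It was 1.59-fold higher in cKO (log2 0.67, SE 0.12, limma adjusted p = 0.0732), and 0.33 relative to the median gene, which was not called. The call was also lost without cKO sample 3 (0.66) and without cKO sample 4 (0.68), when the unadjusted p by limma, with the spread taken from the 2 WT samples alone, was no longer under 0.05. Ninj1, with 6504 and 5762 in WT, was at 9592 and 10781 in cKO, again without overlap. It was 1.66-fold higher (log2 0.73, SE 0.14, limma adjusted p = 0.0778), 0.40 and not called relative to the median gene, and not called without cKO sample 4 (0.65). With samples scaled to the same total coverage Gsdmd was at 0.46 and Ninj1 at 0.52, neither called, so that both genes kept their direction but not their call under either scaling.

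The caspase that binds LPS and the sensor Nlrp3 lay on the other side. Casp4, at 6270.0 and 6466 in WT, was at 4678 and 4579 in cKO, without overlap. Its log2 fold change of -0.46 (SE 0.10, limma adjusted p = 0.0882) stayed within the 1.5-fold threshold on the deposited scale and became -0.80 relative to the median gene and -0.67 at the same total coverage, both called lower. Nlrp3, at 13275 and 11852 in WT, was at 9542 and 9701 in cKO, and its log2 fold change was -0.38 (SE 0.12, limma adjusted p = 0.136). Relative to the median gene Nlrp3 was at -0.72 and at the same total coverage at -0.59, both called lower. Casp4 and Nlrp3 were thus below WT in every cKO sample on each scale used, and the size of the difference passed the threshold only after scaling.

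The remaining sensors, the adaptor and caspase-1 were not called at 4 h on the deposited scale, where Nlrc4 and Aim2 had values near that of Nlrp3. Aim2 was at 1347 and 1550.1 in WT, against 1103 and 1138 in cKO, a log2 fold change of -0.37 (SE 0.13, limma adjusted p = 0.164) that was called only after centring, at -0.70. Nlrc4 was at 140.3 and 157 in WT, against 126 and 102 in cKO, a log2 fold change of -0.39 (SE 0.17, limma adjusted p = 0.221) that was also called only after centring, at -0.72. For both sensors the cKO samples lay below the WT samples. Naip2 (log2 fold change -0.03, 95% interval from limma -0.34 to 0.28), Naip5 (-0.09, -0.65 to 0.46), Pycard (-0.09, -0.54 to 0.36) and Casp1 (-0.01, -0.40 to 0.38) overlapped between genotypes on the deposited scale. After centring these were at -0.37, -0.43, -0.43 and -0.35, and none was called. In all, 6 of the 10 genes did not overlap between genotypes at 4 h, 2 higher and 4 lower in cKO, against 66.0% of all genes (51.1% higher and 14.9% lower). After centring all 10 were apart, 2 higher and 8 lower, against 64.0% of all genes (29.5% higher and 34.5% lower).

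Resting cells were compared in the same way. None of the 10 genes was called at 0 h, against 14.6% of 16251 genes (8.99% higher and 5.61% lower), and 1 of them, Casp4, had an unadjusted p under 0.05 by limma, against 21.3% of all genes. Over all genes 1461 were higher and 912 lower, 1178 and 1135 after centring, and 1098 and 1213 at the same total coverage. Casp4 was at 641 and 538 in WT, against 415 and 396 in cKO. Its log2 fold change of -0.53 (SE 0.14, limma adjusted p = 0.197) was near the one at 4 h and stayed under the fold threshold on the deposited scale. Nlrp3, at 661 and 595 in WT, against 394 and 485 in cKO, had a log2 fold change of -0.52 (SE 0.17, limma adjusted p = 0.236). Centred on the median gene, Casp4 (-0.63) and Nlrp3 (-0.61) were the 2 genes called, both lower. Without WT sample 2 Casp4 was called on the deposited scale, at -0.66, in a fit that takes its spread from the 2 cKO samples alone.

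The other genes differed less at 0 h. Gsdmd was at 1323 and 1161 in WT, against 1443 and 1652 in cKO, a log2 fold change of 0.32 (SE 0.15, limma adjusted p = 0.337). Naip2 (0.25, 95% interval from limma -0.16 to 0.65) and Nlrc4 (0.19, -0.21 to 0.60) were a little higher in both cKO samples, and neither was called. Ninj1, by contrast with its values at 4 h, was level between genotypes: its log2 fold change was -0.04 (-0.36 to 0.28), and although its samples did not overlap, 8133 in WT and 8132 in cKO came within about 1 unit of each other. Naip5 (-0.03), Aim2 (-0.13), Pycard (0.09) and Casp1 (0.08) were not called either, and the last 2 turned to slightly below 0 after centring. Counted by overlap, 7 of the 10 genes were apart at 0 h, 3 higher and 4 lower in cKO, against 57.0% of all genes (36.1% higher and 20.9% lower).

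**Figure D3:**
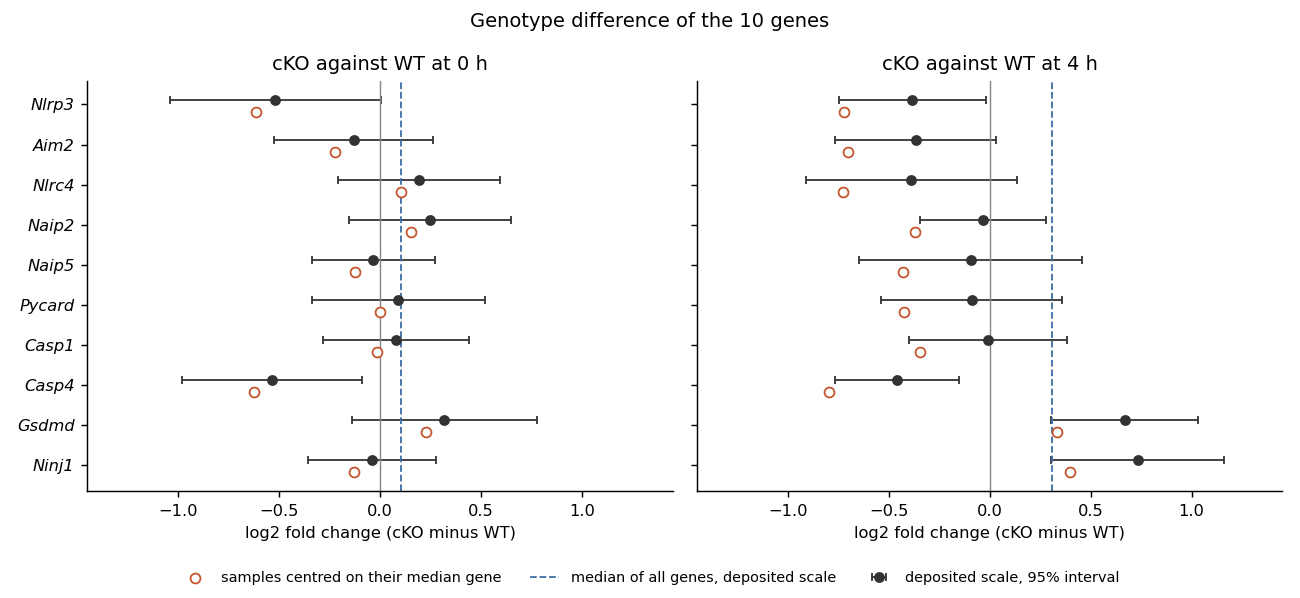
Log2 fold change of cKO against WT for the 10 genes at 0 h and at 4 h. Filled points give the deposited scale with 95% intervals from limma (n = 2 samples per group), open points the values after centring each sample on its median gene, and the dashed line the median of all genes (0.10 and 0.31). At 4 h Gsdmd (0.67) and Ninj1 (0.73) stand to the right of that line and the other 8 genes to the left of it.

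Because ratios of 2 genes within a sample do not depend on how samples are scaled, some pairs were also compared in that way, chosen after the values had been seen and given without a test. The ratio of the pore-forming substrate to its LPS-sensing protease, Gsdmd to Casp4, was 2.06 and 2.16 in WT, against 3.48 and 4.17 in cKO at 0 h, and 0.323 and 0.351 in WT, against 0.734 and 0.739 in cKO at 4 h. At each time both cKO samples were above both WT samples. The ratio of Casp4 to Casp1 was 0.448 and 0.409 in WT, against 0.296 and 0.264 in cKO at 0 h, and 1.51 and 1.36 in WT, against 1.04 and 1.06 in cKO at 4 h, and was lower in cKO each time. The ratio of Gsdmd to Casp1 was 0.924 and 0.882 in WT, against 1.03 and 1.10 in cKO at 0 h, and 0.487 and 0.478 in WT, against 0.763 and 0.780 in cKO at 4 h. These 3 ratios show unequal change between the genes and do not say which gene moved. The ratio of Ninj1 to Gsdmd was lower in cKO at 0 h, at 5.61 and 4.92 against 6.46 and 7.01 in WT, and overlapped at 4 h, with 3.21 and 2.54 in WT, against 2.79 and 3.19 in cKO.

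**Figure D4:**
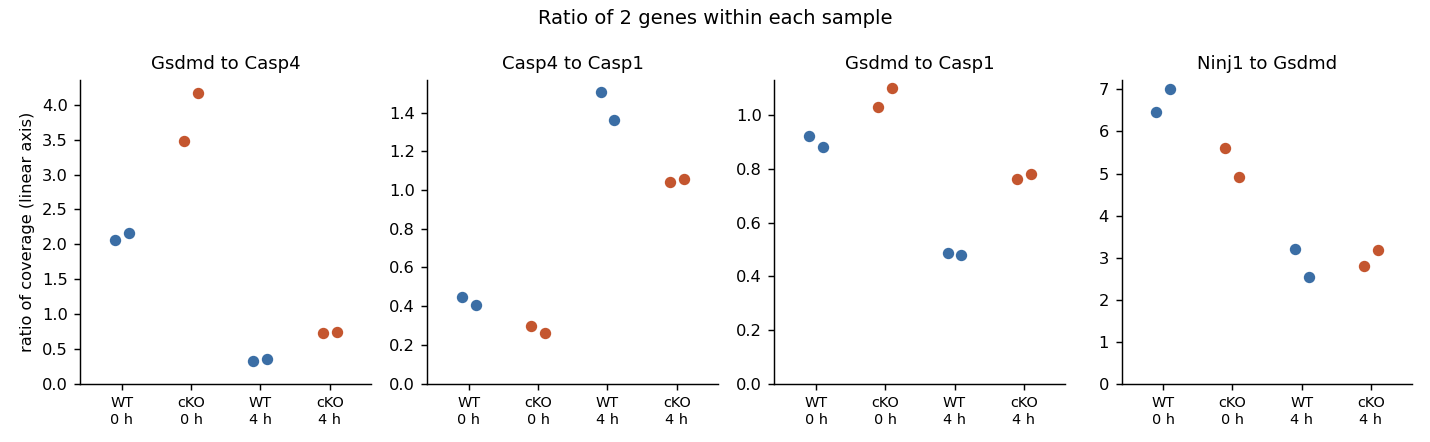
Ratio of the coverage of 2 genes within each sample (linear axes from 0), for WT (blue) and cKO (orange) at 0 h and 4 h. Points are samples. Gsdmd to Casp4 is higher and Casp4 to Casp1 lower in both cKO samples at each time, and Ninj1 to Gsdmd overlaps between genotypes at 4 h.

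Whether the genotype difference itself changed with stimulation was taken from the interaction term of a fit to the 8 samples, which is the same quantity as the difference in stimulation response between genotypes. None of the 10 genes had an adjusted p under 0.05, against 3.05% of 16284 genes, and 2 had an unadjusted p under 0.05 by limma, Ninj1 and Nlrc4. Over all genes 22.1% had such a p. After centring 5 did, Pycard, Casp1, Aim2, Nlrc4 and Naip2, each with a lower genotype difference at 4 h than at 0 h, against 21.6% of all genes (12.6% lower), and again none passed after adjustment. For Ninj1 the genotype difference was larger at 4 h than at 0 h by 0.77 on the log2 scale (SE 0.16, limma adjusted p = 0.0783), and by 0.51 after centring, when its unadjusted p was no longer under 0.05. For Nlrc4 it was lower at 4 h by -0.58 (SE 0.21, limma adjusted p = 0.2), and by -0.85 after centring. The difference for Gsdmd was 0.35 (95% interval from limma -0.12 to 0.82), and that for Nlrp3 0.14 (-0.38 to 0.66) and for Casp4 0.07 (-0.35 to 0.50). Intervals of this width do not show that the rises of Nlrp3 and Casp4 were alike in the genotypes. Centring turned the last 2 values to -0.13 and -0.19.

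The other genes of the pathway were taken from 7 lists, with 3 listed genes not matched in the tables. Stimulation gave the same counts in WT and cKO. Of the listed cytokine genes (Il1b, Il18, Il1a and Il33) 4 of 4 were called higher. The priming receptors and transcription factors had 9 higher and 1 lower of 12. Genes for LPS delivery and its restraint had 6 higher and 2 lower of 8. Of the executioners of other death 5 were higher and 4 lower of 11, and of the other sensors 3 higher and 6 lower of 9. Of the cofactors 2 were higher and 9 lower of 13, and of the Ragulator and Rag genes 0 higher and 6 lower of 8. Over all genes 12.0% were higher and 56.0% lower in WT, and 13.5% and 51.9% in cKO. After centring, when those shares were 34.7% and 22.2% in WT and 32.7% and 22.4% in cKO, the counts differed between WT and cKO for several lists, and those of the cofactors turned to 6 higher and 1 lower in WT and 4 higher and 1 lower in cKO, and those of the Ragulator and Rag genes to 4 higher and 1 lower in WT and 2 higher and 1 lower in cKO. Between genotypes at 4 h the median log2 fold change was -0.49 for the cytokine genes, -0.08 for the other sensors and 0.09 for the cofactors. It was 0.16 for Ragulator and Rag, 0.17 for priming and 0.22 for LPS delivery and its restraint. For the executioners it was 0.31, equal to that of all genes.

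At 4 h the listed cytokine genes held 1 call among 4 tested, against 4.17% of all genes called lower. After centring 3 were called, all lower, against 9.90%. Only Il1b and Il18 of these encode the cytokines named above as matured by caspase-1. Il1b, the precursor of IL-1β, was at 329267 and 227495 in WT, against 140741 and 135677 in cKO, a log2 fold change of -0.99 (SE 0.24, limma adjusted p = 0.101). Il18 was at 1172 and 1039 in WT, against 879.6 and 847 in cKO (-0.35, limma adjusted p = 0.16), below WT in both samples but called only after centring (-0.69). All 4 cytokine genes had a negative value at 4 h. At 0 h 1 of 3 cytokine genes tested was called, against 8.99% of all genes called higher. This was Il1a, the precursor of IL-1α, at 49.3 and 64.9 in WT and higher, at 173 and 134, in cKO (log2 1.43, SE 0.24, limma adjusted p = 0.125). Il1b was not called (-0.09).

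Among 13 cofactors and regulators tested at 4 h, 2 were called higher and 1 lower in cKO, against 20.8% and 4.17% of all genes. After centring 1 was called higher and 4 lower, against 10.4% and 9.9% of all genes. P2rx7, the ATP-gated channel upstream of Nlrp3, was at 102 and 123 in WT, against 188 and 179 in cKO (log2 0.71, SE 0.15, limma adjusted p = 0.0854), a call lost after centring (0.38). Gsk3b, a kinase, was called higher at both times and on both scales, with a log2 fold change of 1.20 after stimulation (limma adjusted p = 0.0529) and 0.93 before it (adjusted p = 0.16). Ifi208, a member of the PYHIN family also named Pydc3, was lower on both scales: its coverage was 1103 and 1222 in WT, against 297 and 313 in cKO at 4 h (-1.93, SE 0.12, limma adjusted p = 0.0362), and its log2 fold change at 0 h was -1.85. Nek7, the kinase that binds Nlrp3, was not called at 4 h (0.14) or at 0 h (0.14). At 0 h 1 of 14 was called higher and 1 lower, Gsk3b and Ifi208, against 8.99% and 5.61% of all genes.

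For the further lists, the shares of all genes called are 20.8% higher and 4.17% lower at 4 h and 8.99% higher and 5.61% lower at 0 h. After centring these shares are 10.4% higher and 9.9% lower at 4 h and 7.25% higher and 6.98% lower at 0 h. Of the other sensors none of 8 was called at 4 h by limma, and 0 had an unadjusted p under 0.05, and at 0 h 1 of 9 was called higher, Naip1 (log2 1.21), and 1 lower, the PYHIN gene Ifi209 (-0.70). After centring these sensors had 0 higher and 1 lower at 4 h and 1 higher and 4 lower at 0 h. Of 11 executioners of other lytic or apoptotic death, 2 were called higher at 4 h, the death-receptor adaptor Fadd (0.87) and the necroptosis effector Mlkl (0.63), neither after centring, and none at 0 h, when 2 had an unadjusted p under 0.05 by limma. After centring 1 of the 11 was called lower at each time. The next list held 8 genes for delivery of LPS to the noncanonical pathway and for its restraint. Its guanylate-binding protein gene Gbp7 was called higher at 4 h (0.74, not after centring) and Gbp3 lower at 0 h (-0.60). None of 12 priming receptors and transcription factors was called at either time on the deposited scale, with an unadjusted p under 0.05 by limma for 4 at 4 h and 2 at 0 h, and after centring 2 were called lower at 4 h and 0 at 0 h. Of 8 Ragulator and Rag genes, known to act on the gasdermin D pore, 2 were called higher at 4 h, Rragd (3.96) and Lamtor1 (0.60, not after centring), and 3 at 0 h, Rragd (2.56), Lamtor5 (0.74) and Rragc (0.61, not after centring). Centring also added 2 lower calls among these genes at 4 h. Rragc falls outside the rule for named genes and was chosen after its values were seen. The interaction was called, at an adjusted p under 0.05, for 2 listed genes, also chosen after their values were seen. They were Tlr4, the LPS receptor (-1.04, limma adjusted p = 0.0482), and Gbp3 (0.88, limma adjusted p = 0.0462), the latter not after centring. Neither was checked with the replicate number as a block or with a sample left out.

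Since Nudt21 acts through UGUA in 3' ends, the annotated 3'UTRs of the 10 genes were searched for these 4 letters, using 1 GENCODE M21 transcript on GRCm38 for each gene. All 10 held at least 1 UGUA, as did 85.8% of 16406 genes. The density ran from 1.54 per kilobase in Ninj1 to 11.4 in Casp1, against a median of 4.96 over all genes. The value of Casp1 rests on 1 UGUA in a 3'UTR of 88 bases. The most sites, 11 each, were in Nlrc4 and Pycard. Gsdmd and Ninj1, the genes called higher in cKO, held 1 UGUA each. The one in Gsdmd starts at base 151 of a 3'UTR of 169 bases, and the one in Ninj1 at base 63 of 650. Casp4 also held 1, at base 233 of 254, and Nlrp3 held 4 in 693 bases, the last at base 626. The last UGUA of each is shown in capitals within 30 bases, because its distance from the transcript end differs so much between the genes.
Gsdmd (chr15:75867377-75867406, plus strand): aaaacucaauaaaUGUAcaaaggaaagcau
Ninj1 (chr13:49195644-49195673, plus strand): ccccugcaacugcUGUAcccccaagguauc
Casp4 (chr9:5336749-5336778, plus strand): uuuuauuuauuugUGUAcauaaauaaaaag
Nlrp3 (chr11:59566876-59566905, plus strand): cuuaauuuaaaaaUGUAucuagaauucuuu
The UGUA starts 19 bases from the transcript end in Gsdmd, 22 in Casp4, 68 in Nlrp3 and 588 in Ninj1. In Gsdmd it follows the polyadenylation signal AAUAAA directly, and in Casp4 it stands before one. These 4 genes were chosen for their genotype values, and use of polyadenylation sites was not analysed here.

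On GRCm38 the genes lie apart except for 2 clusters. Casp1 (chr9:5298517-5307265) and Casp4 (chr9:5308828-5336783) are adjacent on the plus strand, and Naip2 (chr13:100144063-100202092) and Naip5 (chr13:100211739-100246323) lie side by side on the minus strand. Gsdmd is on chromosome 15 (75862327 to 75867408), Ninj1 on chromosome 13 (49187485 to 49196244), Nlrp3 on chromosome 11 (59541568 to 59566956), Aim2 on chromosome 1 (173350879 to 173466040), Pycard on chromosome 7 (127989708 to 127993867) and Nlrc4 on chromosome 17 (74425438 to 74459142). Of the stretches of 100 bases in the transcript used, 16.2% of those of Naip5 and 4.6% of those of Naip2 also occur in transcripts of other genes, the relatives Naip1, Naip3 and Naip6 among them, so reads could be split between these genes and their values are less certain. The other 8 genes had no such shared stretch. Exons of Pycard share 485 bases, 12.8% of its exon bases, with the gene model Gm45205 on the opposite strand, and the library kit did not mark strand.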

How the data were processed

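RNA-seq of BMDMs had been performed with a kit that does not mark strand. Per the labels and the study's methods, the authors aligned reads to mm10 (GRCm38) with HISAT2 2.2.1 and quantified RefSeq genes with StringTie 2.1.7. The authors deposited 1 signal per gene and sample, read as mean coverage per base from its values, in 1 table per time. The deposited tables also hold the authors' fold changes and p-values, which were not used. All columns of per-sample values were used. The number of reads behind a value is unknown, so no counting interval is given. limma 3.58.1 in R 4.3.3 was run on log2(coverage + 0.1) for genes that averaged at least 0.5 in the samples compared. Genotypes were compared at each time, and stimulation and the interaction over all 8 samples. Because of the pseudocount, fold changes of low genes are understated. The procedure was tested on simulated data. Alternatives covered the pseudocount, the filter, scaling, the samples in the fit, the replicate number as a block and adjusted p-values. Named genes were the 10 genes, Nudt21, Il1b, Il18, Nek7, P2rx7 and, from each pathway list, the 2 called genes with the largest change in each genotype comparison. The genes and lists were chosen with earlier results of these data known. Positions and transcripts came from GENCODE M21, promoters from RefSeq. One further promoter motif is not reported here.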

Additional observations from a re-analysis of the deposited data

Results flagged for a closer look

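The genotype difference pointed in opposite directions at the 2 times, without overlap of samples at either, for 2 of the 10 genes, against 9.82% of the 14210 genes tested at both times. Ninj1 lay below WT at 0 h, by a margin of about 1 unit of coverage between the nearest samples, and above it at 4 h, and the difference between the times was 0.77 on the log2 scale (SE 0.16, limma adjusted p = 0.0783). Nlrc4 lay above WT at 0 h and below it at 4 h, with a difference of -0.58 (SE 0.21, limma adjusted p = 0.2), and its samples overlapped at 0 h once centred on the median gene. Neither passed the adjusted threshold, and the range of the difference with each sample left out in turn was 0.68 to 0.86 for Ninj1 and -0.73 to -0.43 for Nlrc4. The cause was not tested.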

How the results depend on the processing

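The genotype calls changed with the scaling, and also with the p-value rule and the samples in the fit. After centring on the median gene, 4 of the 10 genes were called at 4 h instead of 2, and 2 instead of 0 at 0 h. At the same total coverage 2 were called at 0 h, and the 2 called at 4 h were Nlrp3 and Casp4, both lower. With adjusted p-values 0 were called at 4 h, and over all genes 577 at 4 h and 167 at 0 h. With adjusted p-values in 1 fit over all 8 samples, 2 were called at 4 h (Gsdmd and Ninj1) and 0 at 0 h, and over all genes 3052 and 794, a combination tried after seeing the data. Centring left 10 of the 10 genes without overlap at 4 h instead of 6 (2 above and 8 below WT), against 64.0% of all genes. With each sample left out in turn, the count of called genes ranged from 0 to 2 at 4 h and from 0 to 1 at 0 h, from 8 to 8 with stimulation in each genotype, and, by its own rule of an adjusted p under 0.05, from 0 to 0 for the interaction. At a time, a group left with 1 sample is assumed to vary like the other. Over all genes those ranges were 2243 to 4577 at 4 h and, for the interaction, 184 to 692, both lowest without cKO 4 h sample 4. Directions turned under centring for stimulation of Nlrc4 (0.17), Naip2 (0.78) and Ninj1 (1.02) in WT and Naip2 (0.24) in cKO, for Pycard (-0.0021) and Casp1 (-0.013) between genotypes at 0 h, and for Nlrp3 (-0.13) and Casp4 (-0.19) in the interaction. At the same total coverage they turned for Pycard (-0.032) and Casp1 (-0.044) at 0 h and Casp4 (-0.015) in the interaction. With a sample left out, values near 0 changed sign for Pycard (-0.21 to 0.034), Casp1 (-0.10 to 0.087) and Naip5 (-0.26 to 0.071) at 4 h, for Pycard (-0.018 to 0.20) at 0 h, and in the interaction for Nlrp3 (-0.013 to 0.29), Casp1 (-0.18 to 0.0087), Casp4 (-0.052 to 0.20) and Naip5 (-0.22 to 0.11). The cause was not tested beyond the scaling itself.

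Sample numbers recur at both times within a genotype. Deviations from the group means of same-numbered samples correlated at only 0.02 in WT and 0.024 in cKO. This does not show whether the same pools of mice were used at both times. The main fit left the samples unpaired. With the replicate number as a block, 8 of the 10 genes were called with stimulation in each genotype and 0 in the interaction, as without it. Without the block 68.0% of all genes in WT and 65.4% in cKO were called with stimulation. Over all genes the interaction calls dropped from 496 to 31 with the block. Of 290 values for single genes under the other settings, 260 kept direction and side of the threshold. With 2 samples per group and no read numbers, the spread between replicates is poorly known.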
